A study of Mus musculus with 12 samples.

Results

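Transcription factors that set or mark helper and regulatory T cell lineages, Tbx21, Eomes, Gata3, Rora, Foxp3, Bcl6, Prdm1, Maf and Ikzf2, were followed in 12 RNA-seq libraries of splenic CD4+ T cells. They were taken by name from the authors' table and by Ensembl identifier from the count files, and all 9 were found among 38924 identifiers and passed the filter on low counts. The cells came from C57BL/6 mice, either wild type (WT) or STINGgt/gt. STINGgt/gt (Goldenticket) mice carry a missense mutation in the STING gene that leaves no functional protein, and the labels call these samples STING KO. By the study's methods, mice were 8 to 12 weeks old and of 1 sex within an experiment, naive cells were sorted, expanded for 2 days with anti-CD3 and anti-CD28 antibodies and rested for 1 day. Cells of each genotype then received the solvent DMSO or CMA (10-carboxymethyl-9-acridanone), a cell-permeable agonist of mouse STING, for 16 h, with 3 libraries in each of the 4 groups.

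STING is an adaptor of the endoplasmic reticulum that signals through the kinase TBK1 to IRF3 and NF-κB. CD4+ T cells take on helper fates under lineage regulators: T-bet (Tbx21) and Eomesodermin (Eomes) direct T helper 1 and cytotoxic genes, GATA3 directs T helper 2 genes, RORα (Rora) acts in T helper 17 cells, and FOXP3 defines regulatory T cells, where Helios (Ikzf2) is also found. BCL6 directs follicular helper cells and Blimp-1 (Prdm1) opposes it, each repressing the other, while c-Maf (Maf) drives Il10, Il21 and Il4 in several helper lineages.

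Between 27414450 and 43784910 reads per library were assigned to genes, and 13811 genes entered the fit. All 10 T cell markers on a fixed list were detected in every group, with Cd4 at group means of 436 to 540 CPM (the reads of a gene scaled to a common library size). In WT with CMA 2 of the 10 rose and 5 fell, a median log2 change of -0.15, beside 33.0% and 37.4% of all genes. Tmem173, which encodes STING, averaged 173 to 186 CPM in 3 groups and 305 CPM in WT cells with CMA. A missense mutation need not lower this transcript, so its level does not check the genotype labels. Markers of other cells were present: the 7 B cell markers summed to 287–303 CPM in WT with DMSO, 378–408 CPM in WT with CMA, 125–132 CPM in STINGgt/gt with DMSO and 125 CPM with CMA. The 9 CD8 and natural killer markers summed to 241–272, 104–111, 83.3–87.7 and 80.2–87.1 CPM in the same order, and the 5 plasma cell markers to 265–291, 182–190, 211–219 and 181–190 CPM. Most of the plasma cell sum was Xbp1, with group means of 242, 156, 203 and 174 CPM, whereas Jchain averaged 0.441 CPM in WT with DMSO and less elsewhere. In WT with DMSO, Prf1, Nkg7 and Gzma averaged 79.6, 69.6 and 45.5 CPM, most of the CD8 and natural killer sum. No B cell or CD8 and natural killer marker was at 0 throughout a group, whereas Tnfrsf17 of the plasma cell list was at 0 in every library of 3 groups.

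Library totals were scaled by the trimmed mean of M values (TMM), and CPM always means this scaled value. Divided by exon length, Tbx21 was the most abundant of the 9 in every group, at 36.3 ± 1.70 CPM per kb (SD, n = 3) in WT with DMSO and 66.6 ± 1.28 with CMA. Gata3 followed in WT cells, with 7.74 ± 0.176 CPM per kb under DMSO, and Eomes in STINGgt/gt cells, with 7.55 ± 1.19. The lowest was Foxp3 in WT cells, at 0.316 ± 0.0527 CPM per kb under DMSO, and Maf in STINGgt/gt cells, at 0.108 ± 0.0108. Rora had rank 5 in WT cells under DMSO and rank 4 under CMA, and Prdm1 rank 4 and rank 7.

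**Figure D1:**
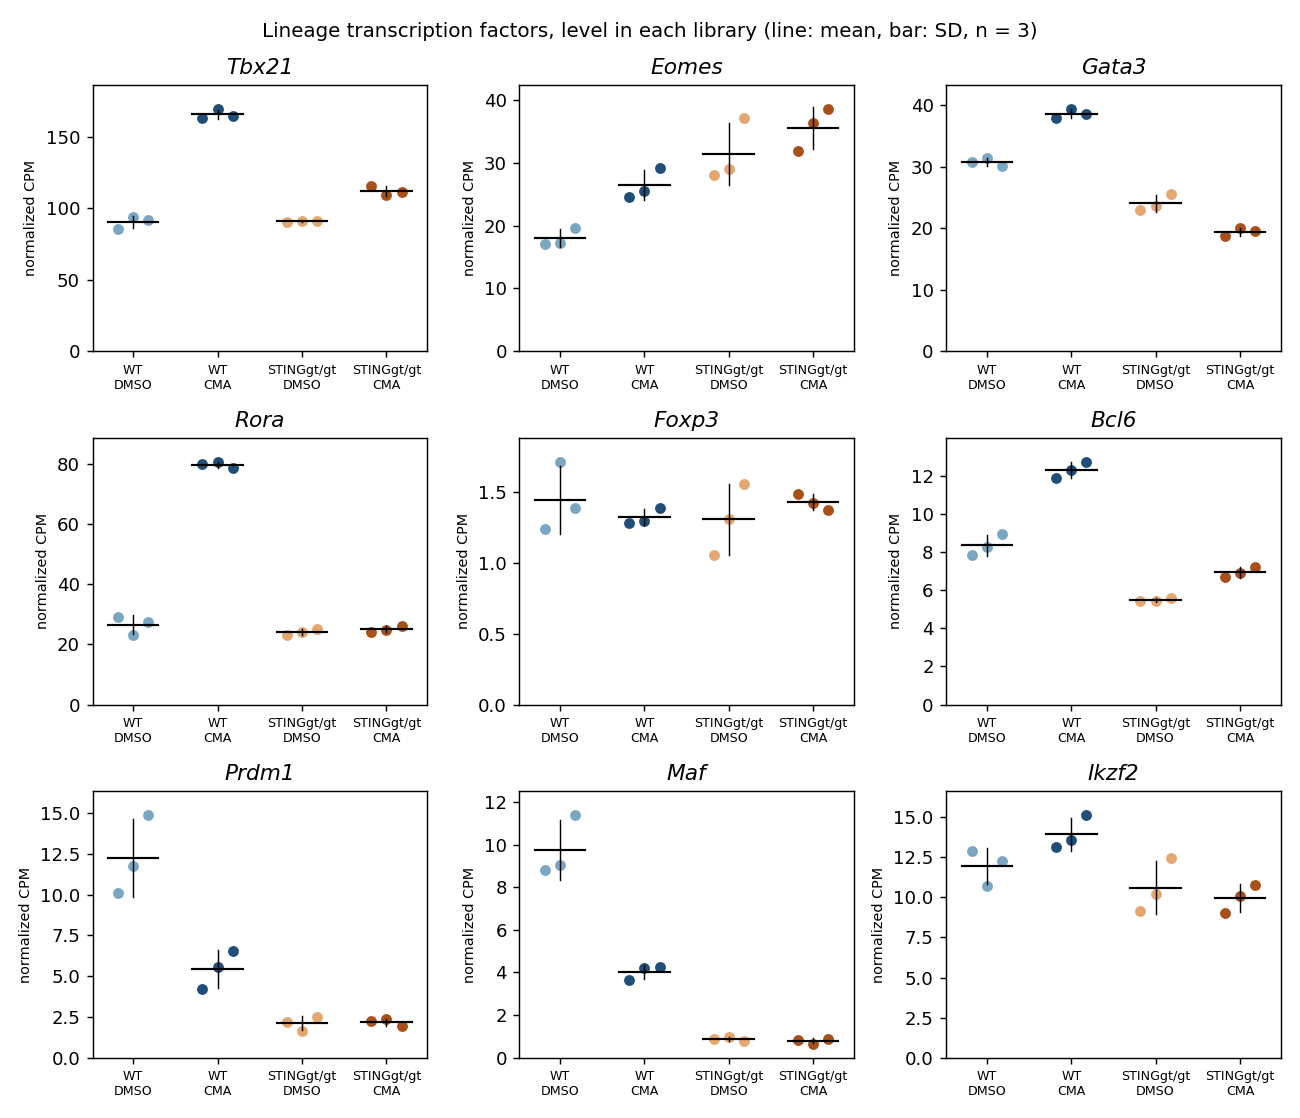
Normalized CPM (y axis, from 0) of each factor in each of the 12 libraries, by genotype and treatment (x axis); points are libraries, horizontal lines are means and vertical bars are SD (n = 3). Rora stands at 78.5 to 80.5 CPM in WT cells with CMA and at no more than 29.1 CPM in any other library, and Maf is below 1 CPM in every STINGgt/gt library.

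The first question was what CMA changed in WT cells. Of the 9 factors, 5 rose (Tbx21, Eomes, Gata3, Rora and Bcl6), 2 fell (Prdm1 and Maf) and 2 did not pass the test (Foxp3 and Ikzf2), by edgeR's quasi-likelihood test at an adjusted p under 0.05. The same test called 70.4% of all genes, 33.0% higher and 37.4% lower, so a share of 7 in 9 is close to the background. The median absolute log2 change was 0.55 for the 9 factors and 0.39 for all genes tested. In STINGgt/gt cells the test called 2 factors higher (Tbx21 and Bcl6) and 1 lower (Gata3), where 1.32% of all genes were called. The CMA effect itself differed between genotypes for 6 factors, beside 58.8% of all genes. These comparisons share libraries and are not independent of each other. Where a factor is said to have risen or fallen, fewer cells of a type and less RNA per cell cannot be told apart in bulk RNA.

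Among the T helper 1 factors, Tbx21 (chr11:97098071-97115331, minus strand, GRCm38) measured 85.6, 93.8 and 91.6 CPM in the WT libraries with DMSO and 163, 169 and 164 CPM with CMA. In STINGgt/gt it measured 90.3, 91.3 and 91.1 CPM with DMSO and 116, 109 and 111 CPM with CMA. The CMA libraries thus lay above the DMSO libraries in both genotypes, further in WT. Tbx21 rose by 0.87 on the log2 scale in WT (SE 0.0432, edgeR adjusted p = 2.15e-11) and by 0.30 in STINGgt/gt (SE 0.0430, adjusted p = 0.00208). The difference of the 2 effects was 0.57 (SE 0.0608, edgeR adjusted p = 6.51e-07).

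Eomes (chr9:118478212-118486132, plus strand) measured 17.04, 17.3 and 19.7 CPM in WT with DMSO and 24.6, 25.5 and 29.2 CPM with CMA, again without overlap. In STINGgt/gt it was higher already under DMSO, at 28.0, 29.0 and 37.0 CPM, and the CMA values of 31.9, 36.3 and 38.5 CPM overlapped them. It rose by 0.55 in WT (SE 0.106, edgeR adjusted p = 0.000228) and stood at 0.19 in STINGgt/gt (95% interval -0.02 to 0.39, adjusted p = 0.453; 0.11 to 0.32 when single libraries were left out). The difference of the effects, 0.36 (SE 0.144), passed narrowly with an edgeR adjusted p of 0.0415. It lost the call under 8 of 19 alternatives, with adjusted p up to 0.117: library-size scaling, and fits without WT DMSO 1 or 2, WT CMA 2 or 3, STINGgt/gt DMSO 3, or STINGgt/gt CMA 1 or 2. Of the 9 CD8 and natural killer markers, 7 fell with CMA in WT, opposite in direction to Eomes and beside 37.4% of all genes. CD8 and natural killer cells also express Eomes. The sort for naive T cells would remove such cells; their part in the result was not tested.

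Gata3 (chr2:9857078-9890034, minus strand) was the factor that moved in opposite directions. It measured 30.7, 31.5 and 30.1 CPM in WT with DMSO and 37.9, 39.4 and 38.7 CPM with CMA. In STINGgt/gt it measured 23.1, 23.6 and 25.6 CPM with DMSO and 18.8, 20.02 and 19.5 CPM with CMA. No 2 groups overlapped. Gata3 rose by 0.33 in WT (SE 0.0504, edgeR adjusted p = 2.14e-05) and fell by 0.31 in STINGgt/gt (SE 0.0528, adjusted p = 0.00841). With a replicate block by library name, the STINGgt/gt fall lost its call (adjusted p = 0.0607 by edgeR). The effects differed by 0.64 (SE 0.0730, edgeR adjusted p = 1.52e-06).

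Rora (chr9:68653786-69388246, plus strand) showed the largest rise of the 9. It measured 29.1, 23.0 and 27.5 CPM in WT with DMSO and 80.0, 80.5 and 78.5 CPM with CMA. STINGgt/gt libraries stayed between 23.1 and 26.2 CPM under both treatments, and their groups overlapped. Rora rose by 1.59 in WT (SE 0.0663, edgeR adjusted p = 2.50e-12), and stood at 0.06 in STINGgt/gt (95% interval -0.09 to 0.20, adjusted p = 0.786). Without single libraries the STINGgt/gt value ran from 0.023 to 0.083. The effects differed by 1.53 (SE 0.0956, edgeR adjusted p = 1.07e-09).

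For the regulatory factors no call was made in either genotype. Foxp3 (chrX:7579676-7595243, plus strand) had 34 to 63 counts per library and lay between 1.06 and 1.71 CPM in all 12, with every pair of groups overlapping. Its log2 change with CMA was -0.13 in WT (95% interval -0.49 to 0.23, edgeR adjusted p = 0.514) and 0.14 in STINGgt/gt (-0.21 to 0.49, adjusted p = 0.780). Leaving out single libraries moved the WT value between -0.20 and -0.01. Of its exon bases, 18.6% are shared with Flicr on the same strand and 12.9% with Ccdc22 on the other. Ikzf2 (chr1:69531214-69685960, minus strand) measured 12.9, 10.7 and 12.3 CPM in WT with DMSO and 13.1, 13.6 and 15.1 CPM with CMA. The 2 groups did not overlap, yet the change of 0.22 (95% interval -0.00 to 0.44) missed the threshold (edgeR adjusted p = 0.0709) and passed it under 10 of 20 alternatives. In STINGgt/gt it measured 9.17, 10.2 and 12.4 CPM with DMSO and 9.02, 10.1 and 10.8 CPM with CMA, which overlapped (log2 change -0.08, 95% interval -0.31 to 0.14). The CMA effects on Ikzf2 differed by 0.30 (-0.01 to 0.62, edgeR adjusted p = 0.0934) and those on Foxp3 by -0.27 (-0.78 to 0.23, adjusted p = 0.345). Without single libraries these values ran from 0.19 to 0.41 and from -0.39 to -0.12.

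The follicular helper factor Bcl6 (chr16:23965052-23988852, minus strand) measured 7.83, 8.29 and 8.95 CPM in WT with DMSO and 11.9, 12.3 and 12.7 CPM with CMA. In STINGgt/gt it measured 5.41, 5.45 and 5.60 CPM with DMSO and 6.68, 6.90 and 7.22 CPM with CMA. The 4 groups did not overlap. Bcl6 rose by 0.55 in WT (SE 0.0719, edgeR adjusted p = 3.68e-06) and by 0.34 in STINGgt/gt (SE 0.0782, adjusted p = 0.0429). The STINGgt/gt call was lost under 10 of 20 alternatives, among them every fit without 1 WT CMA or 1 STINGgt/gt library, with adjusted p up to 0.248. The difference of the effects was 0.21 (95% interval -0.02 to 0.44, edgeR adjusted p = 0.101). B cells also express Bcl6, and 5 of 7 B cell markers rose with CMA in WT, beside 33.0% of all genes. Those that rose included Ms4a1, Cd79a, Pax5 and Cd22, while Blnk fell by 0.28 and Cd79b was not called (-0.03). A sort for naive T cells, as in the methods, would remove B cells; their part in the result was not tested.

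The antagonist of Bcl6, Prdm1 (chr10:44437177-44528501, minus strand), measured 10.1, 11.8 and 14.8 CPM in WT with DMSO and 4.24, 5.55 and 6.56 CPM with CMA. In STINGgt/gt it measured 2.19, 1.67 and 2.49 CPM with DMSO and 2.26, 2.35 and 1.92 CPM with CMA. Every WT library with CMA lay below the WT libraries with DMSO, while the STINGgt/gt treatments overlapped and lay below both WT groups. Prdm1 fell by 1.19 in WT (SE 0.156, edgeR adjusted p = 3.85e-06) and stood at 0.05 in STINGgt/gt (95% interval -0.41 to 0.51, adjusted p = 0.950). The effects differed by -1.24 (SE 0.268, edgeR adjusted p = 0.000842).

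Maf (chr8:115682942-115707794, minus strand) was also lower with CMA in WT and lowest in STINGgt/gt. It measured 8.81, 9.06 and 11.4 CPM in WT with DMSO and 3.63, 4.20 and 4.25 CPM with CMA. STINGgt/gt libraries held 26 to 36 counts each, or 0.656 to 0.985 CPM, under both treatments. Maf fell by 1.29 in WT (SE 0.117, edgeR adjusted p = 4.69e-08), and stood at -0.17 in STINGgt/gt (95% interval -0.63 to 0.28, adjusted p = 0.795; -0.26 to -0.04 without single libraries). The effects differed by -1.11 (SE 0.248, edgeR adjusted p = 0.00106). Plasma cells and cytotoxic cells also express Prdm1, although the sort for naive T cells would remove them. In WT with CMA, 3 of 4 tested plasma cell markers and 7 of 9 CD8 and natural killer markers fell. So did 4 of 7 tested myeloid markers, beside 37.4% of all genes. The 8 myeloid markers summed to 46.7–50.5 CPM with DMSO and 57.9–62.0 CPM with CMA. Most of that sum was Cst3, which rose from 38.6 to 55.7 CPM, whereas Lyz2, Itgam, Fcgr3 and Itgax fell. The part of all these cells in the fall of Prdm1 and Maf was not tested.

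**Figure D2:**
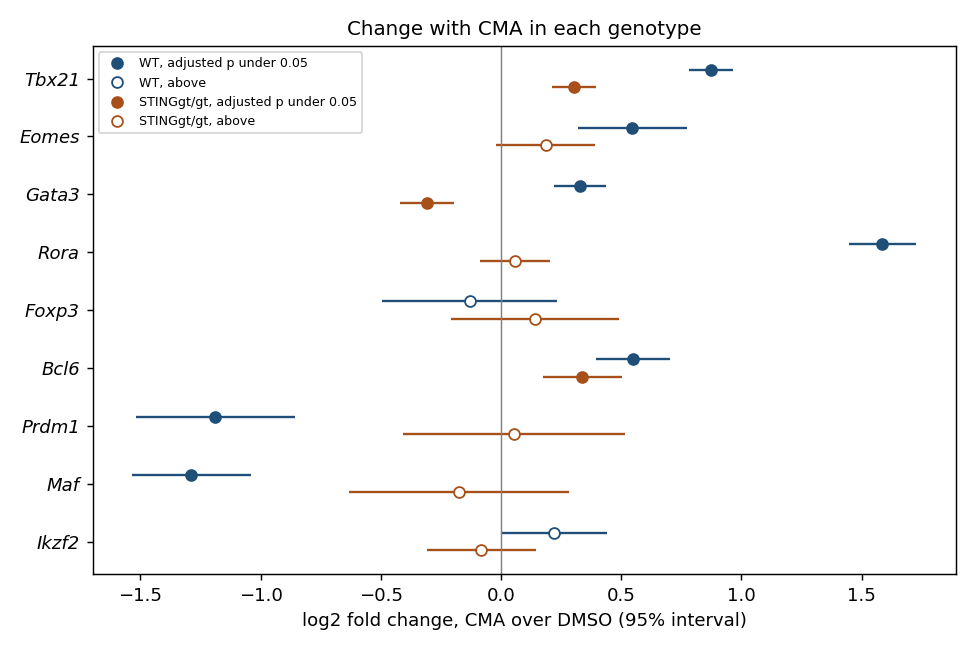
Log2 change with CMA (x axis) for each factor (y axis) in WT and STINGgt/gt cells, with 95% intervals; filled points have an adjusted p under 0.05. Prdm1 and Maf lie below -1 in WT with intervals that cross 0 in STINGgt/gt, and Gata3 lies at 0.33 in WT and -0.31 in STINGgt/gt.

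Promoter sequences (RefSeq, GRCm38.p6) were available for 7 of the 9 factors. They are shown for Bcl6 and Prdm1, which repress each other and moved in opposite directions, for Eomes, and for Rora, the largest rise. Each line gives the 250 bases before an annotated start, 5′ to 3′ in the direction of the gene. Capitals mark matches to 3 motifs searched on both strands: the STAT-binding GAS element (TTCNNNGAA, in 8.3% of 32851 promoter windows of 300 bases), the interferon-response element ISRE (2 copies of GAAA with 2 bases between them, 3.44%) and the AP-1 element (TGANTCA, 7.81%). The NF-kB motif (4.51%) had no match in these windows. In the capitals no 2 matches overlap. A match is a description of the letters, not a site of binding.
Bcl6, chr16:23988853-23989102, minus strand: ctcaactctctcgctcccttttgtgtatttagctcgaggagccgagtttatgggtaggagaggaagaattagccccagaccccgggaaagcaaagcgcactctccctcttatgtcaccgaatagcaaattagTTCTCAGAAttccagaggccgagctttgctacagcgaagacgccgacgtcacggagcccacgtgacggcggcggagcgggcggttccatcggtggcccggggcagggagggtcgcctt
Bcl6, second start, chr16:23981284-23981533, minus strand: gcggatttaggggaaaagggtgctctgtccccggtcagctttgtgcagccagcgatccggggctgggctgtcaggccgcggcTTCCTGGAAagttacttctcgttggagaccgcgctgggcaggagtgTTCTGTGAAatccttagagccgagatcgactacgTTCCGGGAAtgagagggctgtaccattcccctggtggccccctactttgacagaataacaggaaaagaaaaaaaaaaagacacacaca
Prdm1, chr10:44458749-44458998, minus strand: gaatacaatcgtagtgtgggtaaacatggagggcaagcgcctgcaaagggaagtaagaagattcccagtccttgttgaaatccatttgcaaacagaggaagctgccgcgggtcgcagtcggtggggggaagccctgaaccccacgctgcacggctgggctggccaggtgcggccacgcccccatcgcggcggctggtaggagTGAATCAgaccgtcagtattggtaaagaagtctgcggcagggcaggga
Eomes, chr9:118477939-118478188, plus strand: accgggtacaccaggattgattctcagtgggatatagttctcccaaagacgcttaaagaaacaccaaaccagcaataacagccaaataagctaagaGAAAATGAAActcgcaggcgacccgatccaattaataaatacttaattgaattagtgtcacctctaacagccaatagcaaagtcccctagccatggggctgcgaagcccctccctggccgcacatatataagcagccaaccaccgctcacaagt
Rora, chr9:68653536-68653785, plus strand: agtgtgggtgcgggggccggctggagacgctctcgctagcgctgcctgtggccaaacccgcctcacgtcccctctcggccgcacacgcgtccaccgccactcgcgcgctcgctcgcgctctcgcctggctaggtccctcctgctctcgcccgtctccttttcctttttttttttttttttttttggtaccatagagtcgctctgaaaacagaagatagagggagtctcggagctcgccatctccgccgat

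The first Bcl6 window held 1 GAS match, at positions -118 to -110 from the start, and the second held 3. Prdm1 held an AP-1 match at -48 to -42, and Eomes an ISRE match at -154 to -145. The second Foxp3 start, not printed here, held a GAS match at -139 to -131; Foxp3 was not called with CMA. Rora held none of these motifs, nor did Tbx21 or Gata3, the other factors raised by CMA in WT with an entry.

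The second question was how the genotypes differed before CMA. Under DMSO, 4 factors were higher in WT (Gata3, Bcl6, Prdm1 and Maf), 1 was lower (Eomes) and 4 were not called, beside 42.7% of all genes called. Maf was 3.45 higher in WT on the log2 scale (SE 0.148, edgeR adjusted p = 2.45e-11) and Prdm1 2.55 higher (SE 0.178, adjusted p = 9.03e-09). By absolute size these differences ranked 47 and 132 among 13811 genes. Gata3 was 0.35 higher (SE 0.0518, edgeR adjusted p = 4.02e-05) and Bcl6 0.61 higher (SE 0.0783, adjusted p = 9.90e-06). The WT minus STINGgt/gt difference of Eomes was -0.79 (SE 0.105, edgeR adjusted p = 1.46e-05). For the other factors the intervals were narrow in Tbx21 (-0.10 to 0.08, point -0.01) and wider in Rora (-0.01 to 0.29), Ikzf2 (-0.05 to 0.41) and Foxp3 (-0.20 to 0.52).

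In the same comparison, 7 of 7 B cell markers, 7 of 7 tested myeloid markers and 8 of 9 CD8 and natural killer markers were higher in WT. So were 4 of 4 tested plasma cell markers, beside 22.9% of all genes. These markers moved with Gata3, Bcl6, Prdm1 and Maf, and their part in those differences was not tested. Eomes went the other way, lower in WT while 8 of 9 CD8 and natural killer markers were higher there. Genotype also coincides with which mice supplied the cells, so genotype and mouse source cannot be told apart.

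Under CMA, 7 factors were higher in WT, 1 was lower (Eomes, log2 difference -0.43, SE 0.0994, edgeR adjusted p = 0.000975) and Foxp3 was not called (-0.11, 95% interval -0.47 to 0.24), beside 73.5% of all genes called. Rora differed by 1.67 (SE 0.0656, edgeR adjusted p = 7.85e-13) and Gata3 by 0.99 (SE 0.0515, adjusted p = 2.84e-11). In this comparison 7 of 7 B cell markers (median log2 difference 1.58) and 4 of 7 tested myeloid markers were higher in WT, 6 of 9 CD8 and natural killer markers were higher and 3 lower, and of 4 tested plasma cell markers 1 was higher and 1 lower; their part in the factors' differences was not tested. The gaps in Maf and Prdm1 narrowed to 2.34 (SE 0.165) and 1.31 (SE 0.189), as the difference of the CMA effects gives. Ikzf2, which was not called under DMSO, was 0.48 higher in WT (SE 0.104, edgeR adjusted p = 0.000527).

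**Figure D3:**
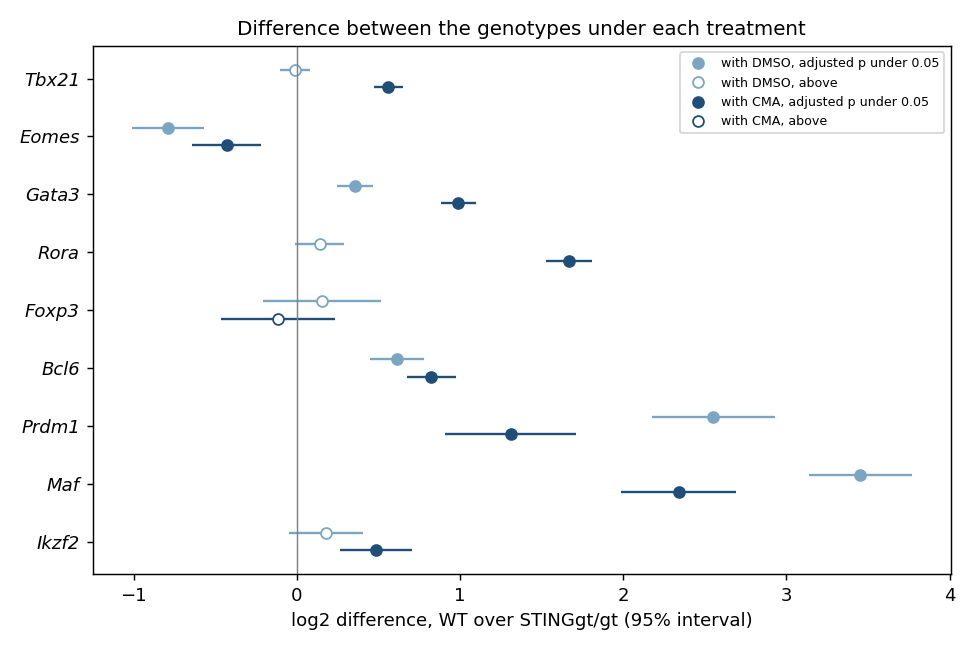
Log2 difference of WT over STINGgt/gt (x axis) for each factor (y axis) under DMSO and under CMA, with 95% intervals; filled points have an adjusted p under 0.05. Maf lies at 3.45 under DMSO and 2.34 under CMA, and Eomes is below 0 under both.

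Opposing factors were also compared within each library as ratios of CPM per kb, given with no test. The ratio of Bcl6 to Prdm1 was 0.574 in WT with DMSO (geometric mean of 3 libraries) and 1.91 with CMA, against 2.19 and 2.66 in STINGgt/gt. WT cells with DMSO were the group with more Prdm1 than Bcl6 in all 3 libraries. Tbx21 exceeded Gata3 4.69 times in WT with DMSO and 6.85 times with CMA, and 6.04 and 9.23 times in STINGgt/gt. The ratio of Rora to Foxp3 was 6.45 with DMSO and 21.1 with CMA in WT, beside 6.53 and 6.13 in STINGgt/gt. Foxp3 counts of 34 to 63 limit the precision of that ratio.

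**Figure D4:**
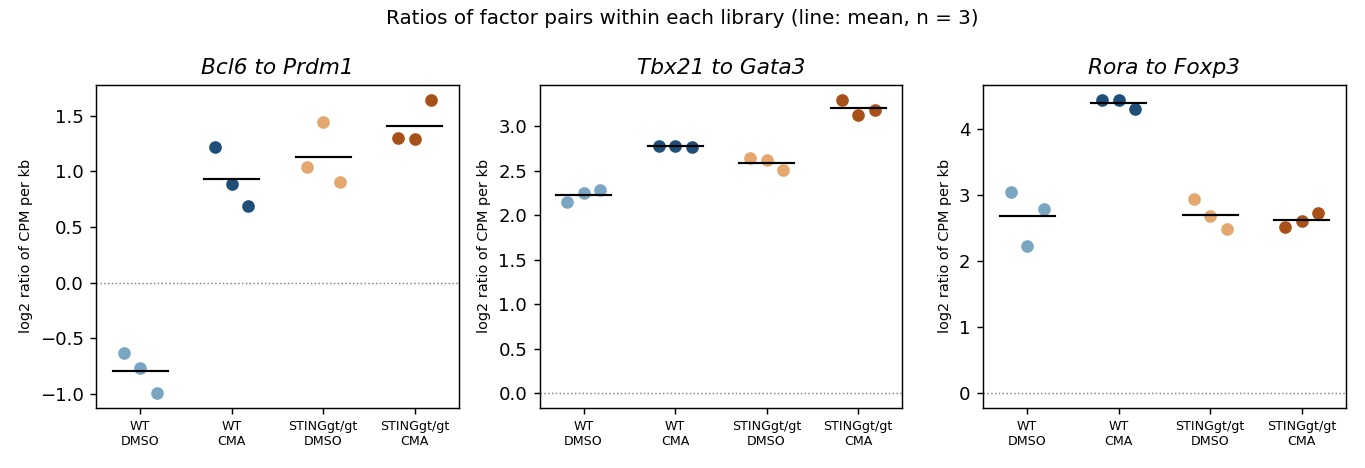
Log2 ratio of CPM per kb (y axis) for 3 factor pairs in each library, by group (x axis); points are libraries and lines are means (n = 3). The Bcl6 to Prdm1 points of WT cells with DMSO lie below 0 and those of the other 3 groups above 0.

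Genes of the helper and regulatory programs, and partner regulators of the factors, were taken from fixed lists. Of the T helper 1 list, 6 of 12 rose and 4 fell in WT with CMA, a median log2 of 0.33 beside -0.04 over all genes. For this and the following lists the share of all genes was 33.0% higher and 37.4% lower. The chemokine gene Ccl5 went from 10.8 to 1933 CPM (log2 change 7.48), and Stat4, which transmits interleukin-12 signals, rose by 1.28. Besides Ifng, those that fell, listed after their values were seen, were Hlx (-2.40), Il18rap (-1.49) and Il18r1 (-1.42). Ifng itself, the product of this lineage, fell from 56.8 to 34.1 CPM (by 0.73, edgeR adjusted p = 5.19e-07). CD8 T cells and natural killer cells also make Ifng, and 7 of 9 of their markers fell in the same comparison, although the sort would remove these cells; their part in this fall was not tested.

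In the T helper 2 list 4 of 11 tested genes rose and 4 fell. Stat6, the interleukin-4 signal transducer, rose by 0.34, and Nfil3 and Ccr4 fell by 1.16 and 1.27. Il4 had 1.49 CPM under DMSO and 1.27 CPM under CMA (edgeR adjusted p = 0.393). In the T helper 17 list 3 of 12 rose and 6 fell. Il22 rose by 1.96, from 1.26 to 4.88 CPM, whereas Il17a fell by 1.79, from 1.39 to 0.391 CPM. Ccr6 fell by 1.67 and Ahr, a ligand-activated factor, by 1.34. These are low levels, and Il17a averaged only 19.8 counts per library.

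In the regulatory T cell list 4 of 14 rose and 7 fell. Izumo1r and Gpr83, surface receptors, fell by 2.57 and 2.53, Nt5e (CD73) fell by 1.71 and Ctla4 by 0.18, whereas Il10 rose from 4.97 to 9.43 CPM (0.90). Il2ra had a log2 change of 0.09 and was not called (adjusted p = 0.0742 by edgeR). In the follicular helper list 5 of 12 rose and 5 fell: Tcf7, Cxcr5 and Slamf6 rose by 1.03, 0.80 and 0.63. B cells also express Cxcr5, and the rise of 5 of 7 B cell markers was given above; their part was not tested. Those that fell, listed after their values were seen, were Tox2 (-1.11), Sh2d1a (-0.33), Icos (-0.31), Pdcd1 (-0.28) and Ascl2, which went from 0.695 to 0.0289 CPM with at most 2 counts per library under CMA. Il21 was not called in WT with CMA (80.8 and 91.2 CPM, edgeR adjusted p = 0.108). Of 20 tested partner regulators 8 rose and 5 fell, with Zbtb32 at 1.24, Id3 at -1.08 and Gata1 at -1.46.

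**Figure D5:**
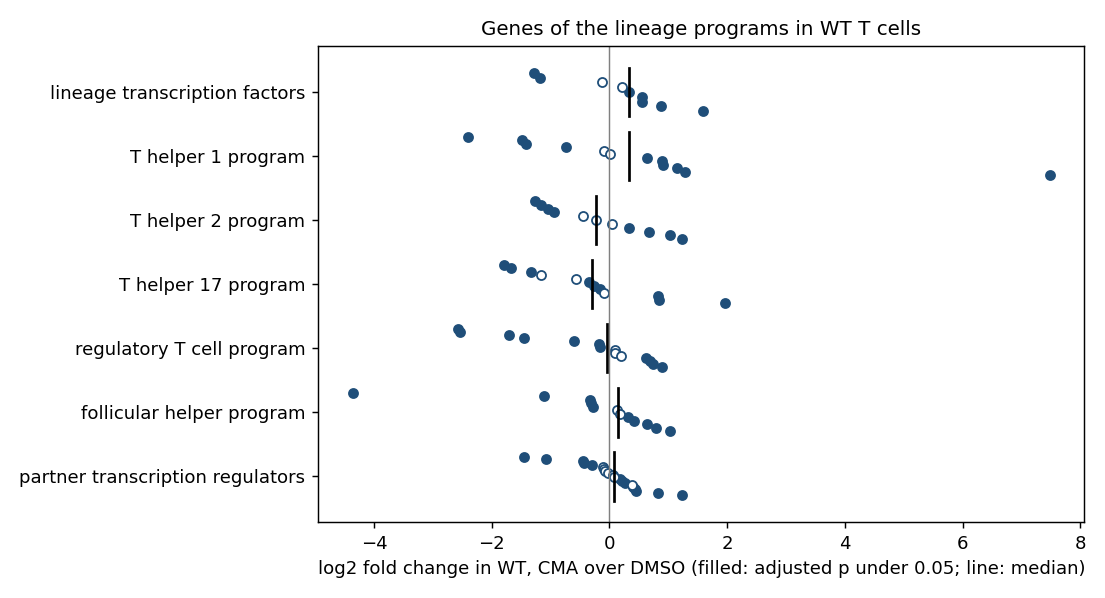
Log2 change with CMA in WT cells (x axis) of the genes of 7 lists (y axis); each point is a gene, filled with an adjusted p under 0.05, and the black line is the median of the list. Ccl5 stands alone at 7.48, and every list holds genes on both sides of 0.

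Under DMSO, 10 of 11 tested T helper 2 genes were higher in WT and 0 lower, as were 10 of 12 T helper 17 genes with 1 lower and 8 of 12 T helper 1 genes with 2 lower, beside 22.9% of all genes higher and 19.8% lower. The other lists were mixed, with 6 of 14 regulatory genes higher and 4 lower, 3 of 12 follicular helper genes higher and 5 lower, and 7 of 20 partner regulators higher and 6 lower. Il21 (log2 difference 5.04), Il10 (5.34), Il4 (1.92), Il17a and Ifng (2.25) were higher in WT, each with an edgeR adjusted p under the threshold. In STINGgt/gt with DMSO, Il10 had at most 6 counts in a library, Il17a at most 10 and Il4 at most 20, so those differences rest on few reads. The B cell, myeloid, CD8 and natural killer and plasma cell markers were higher in WT in this comparison too, as counted above; their part in these differences was not tested.

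By the rule of smallest root mean square difference between centred log2 profiles over 12 libraries, among 11184 genes, the genes most like each factor were named as a description. Tbx21 was nearest to Cldn25 (0.0681) and Irf2 (0.0708), Gata3 to Gstt1 (0.0751), Rora to Clic4 (0.0812) and Bcl6 to Gpr18 (0.0827). Prdm1 was nearest to Serpinb1a (0.245) and Ahr (0.257), and Maf to Tnfrsf8 (0.192) and Il13ra1 (0.248). Eomes was nearest to Zfp280b (0.114), Ikzf2 to AA987161 (0.0979) and Foxp3 to Atg10 (0.101). Libraries of a group share genotype and treatment, so these likenesses rest on 4 group levels more than on 12 independent points.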

How the data were processed

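RNA-seq measured 12 libraries in 4 groups of 3, from total RNA by a stranded mRNA kit. The authors deposited whole-number read counts per Ensembl gene for each library and a log2 table of 11921 genes. The submitters' processing notes name cutadapt 1.3, STAR 2.4.0f1, HTSeq 0.6.1, RSEM 1.2.16 and GRCm38, with no role given. The deposited log2 values equal log2 of the count plus 0.5 with 1 scaling factor per library. Counts were fitted here with edgeR 4.0.16 in R 4.3.3 (TMM scaling, filterByExpr by group, quasi-likelihood test, all 4 groups in 1 model), with Benjamini-Hochberg adjustment over 13811 genes and a threshold of 0.05. Lengths for CPM per kb are exon unions from GENCODE M21. The script was tested on simulated data. DESeq2 1.42.0 and limma 3.58.1 were alternatives, with other scalings, filters, sample sets, blocks and 12 fits each without 1 library. Of the genes outside the 9 factors, up to 3 per list with the smallest adjusted p in WT (groups not overlapping, mean count at least 50) were named, plus Ifng, Il4, Il17a, Il10, Il21, Il2ra and Ctla4, and the 2 genes most like each factor; some genes that this rule names are not reported here. The study calls the replicates biological, without saying whether each came from a separate animal, so p-values measure only the spread between these libraries. Replicate libraries differed by more than sampling noise (chi-square per degree of freedom 2.63 to 29.9). The factors and gene lists were chosen with earlier results of these data known. Reads without a unique position (27.8 to 30.3%) in no gene (4.86 to 7.16%) or in more than 1 (0.594 to 0.635%) were left out of library sizes.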

Additional observations from a re-analysis of the deposited data

Results flagged for a closer look

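The response to CMA differed between the genotypes for 6 factors, by the difference of the effects in edgeR's model (WT minus STINGgt/gt, log2), beside 58.8% of all genes called. The values were 0.57 for Tbx21, 0.361 for Eomes, 0.636 for Gata3, 1.53 for Rora, -1.24 for Prdm1 and -1.11 for Maf. The call for Eomes was lost under 8 of 19 alternatives, and its value ran from 0.24 to 0.45 when single libraries were left out. Gata3 rose in WT and fell in STINGgt/gt, each past the threshold, but the fall lost its call with a replicate block by library name (edgeR adjusted p = 0.0607).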

How the results depend on the processing

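Of 872 values of the 9 factors under alternatives, 828 kept their direction and side of the threshold, 19 lost a call, 18 gained one and 7 changed sign, all 7 of them in comparisons without a call. With CMA in STINGgt/gt, a replicate block by library name left 1 factor higher instead of 2 and 0 lower instead of 1 (Gata3, edgeR adjusted p = 0.0607), and gave Prdm1 -0.15 and Maf 0.039. Leaving out single libraries gave 1 to 2 factors higher there, Foxp3 from -0.00043 to 0.27, Prdm1 from -0.094 to 0.17, Ikzf2 from -0.18 to 0.041, and Tbx21 between genotypes under DMSO from -0.041 to 0.022. Same-numbered libraries correlated by 0.00195 to 0.132 in WT and 0.0585 to 0.0634 in STINGgt/gt over all genes, and the main model did not take the numbers as pairs. The library names pair by number in WT but not throughout STINGgt/gt, and low correlations over all genes cannot show that pairing is absent. With a replicate block, 6 factors were called higher and 2 lower in WT with CMA, instead of 5 and 2. Over all genes, the 55 higher and 127 lower calls with CMA in STINGgt/gt ranged from 12 to 268 and from 31 to 388. Asking for 10 counts in every library, which tests fewer genes, left 1 of 3 T helper 17 genes higher and 3 of 5 follicular helper genes lower in WT with CMA, and limma also gave 3. Low counts limit Foxp3 and, in STINGgt/gt, Maf.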

Other observations

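Replicate 3 was the highest library in all 4 groups for both Eomes and Bcl6. Among all 13811 genes tested, 534 (3.87%) had the same replicate number highest in all 4 groups.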
